A study of Mus musculus with 6 samples.

Results

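Genes of the nuclear pore complex and of the carriers that move cargo through it were examined in PAM212 cells with and without overexpression of miR-28-3p. The members are every gene of the deposited count table whose symbol begins with Nup, Ipo or Xpo followed by a digit, or with Kpna or Kpnb followed by a digit, with the microRNA exporter gene Xpo5 left out. This rule takes 39 of 21936 listed genes, of which 21 are nucleoporins, 14 importins or karyopherins and 4 exportins. It used names only and no measured value, but it was chosen with earlier results of these data known. PAM212 is a mouse cell line that the labels give as keratinocyte, grown here in DMEM with 10% fetal bovine serum. The 3 overexpression libraries come from PAM212 cells infected with a lentivirus that carries the mouse miR-28-3p gene. The 3 control libraries come from PAM212 cells that the labels call not treated and whose titles read NC, and the labels do not mention an empty vector for them. Nor do the labels say how long after infection the cells were taken, whether the infected cells are a clone or a pool, or whether replicate libraries came from different cultures, so p-values measure the spread between these libraries, which may be technical only.

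Polyadenylated RNA was sequenced, and the libraries held 14309898 to 16383374 counted reads each. The summed level of 10 epithelial and keratinocyte marker genes was 4037 to 4078 CPM in control and 3217 to 3258 CPM in overexpressing libraries (CPM, counts scaled to a common library size with TMM factors). Within it Krt18 (1798 to 1070 CPM), Krt8 (1239 to 1088 CPM), Jup (379 to 146 CPM) and Trp63 were called lower, and Cdh1 (382 to 532 CPM), Dsp, Dsg2, Sfn and the basal keratin gene Krt14 (30.5 to 39.1 CPM) higher. Krt8 and Krt18 were called higher, at log2 fold changes of 0.62 and 0.11, with trends on gene length and GC content removed, and Dsg2 (-0.05) was then not called, nor was Krt14 (0.13) with upper quartile scaling. Krt5, the partner keratin of Krt14, had 0 counts in every library, and Trp63 had 14 to 22 counts in the controls and 0 to 5 with overexpression. Summed markers of other cell types were at 8.05 to 9.78 and 7.33 to 8.29 CPM for melanocytes (Tyr at 0), 43.3 to 52 and 16.2 to 17.1 CPM for fibroblasts (Lum at 0), 17.1 to 20.6 and 4.11 to 5.74 CPM for leukocytes (Cd3e and Adgre1 among those at 0), and 0.126 to 0.318 and 0.396 to 0.758 CPM for endothelium (Kdr at 0), controls first. Their part in the results was not tested. In bulk RNA, fewer cells of a type and less RNA per cell cannot be told apart.

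The nuclear pore complex is a ring built from many copies of a limited set of proteins that spans the nuclear envelope. Scaffold nucleoporins build stacked rings, and nucleoporins with phenylalanine-glycine (FG) repeats fill the channel and hold back large molecules that have no carrier. Importins bind cargo in the cytoplasm and release it in the nucleus when they meet Ran bound to GTP, while exportins need Ran-GTP to hold cargo and release it after GTP hydrolysis in the cytoplasm. In dividing mammalian cells pores are taken apart at mitosis and rebuilt in the daughter nuclei, and new pores are added during interphase.

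The overexpressed microRNA is shown because its seed defines the sites searched for in the members. The mature sequence, taken from RefSeq (GRCm38.p6, chromosome 16, 24827908 to 24827929, plus strand, where it is named mmu-miR-28a-3p), has bases 2 to 8, the seed, in capitals.
mmu-miR-28a-3p: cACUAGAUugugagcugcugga

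The question was which members differ in messenger RNA between cells with and without the overexpression. Nearly all of them were higher with it. Of the 39 members, 37 had counts and passed the filter on low counts, and 34 of these 37 were called higher by edgeR's quasi-likelihood test at an adjusted p (Benjamini-Hochberg over all genes) under 0.05, against 42.1% of all 11809 tested genes. Ipo13 was called lower, against 43.9% of all tested genes, and Ipo4 and Nup210l were not called. The remaining members, Kpna7 and Nup62cl, had 0 counts in every library, where 3 counts in a library would be 0.188 to 0.216 CPM. The median log2 fold change over the 37 tested members was 1.28, and over all tested genes it was -0.03. Members called higher by at least 2-fold numbered 27, against 14.8% of all tested genes, and members called higher by at least 4-fold were Nup160, Xpo4, Nup205 and Nup210, 4 in all, against 2.68%. Tested against a minimum change of 1.5-fold, 30 members were called higher, against 23.4% of all genes.

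In 34 members the 3 overexpression libraries all exceeded the 3 controls, a pattern seen in 42.2% of all tested genes, and in Ipo13 every one lay below, as in 43.8%. The members together took 0.322%, 0.317% and 0.322% of counted reads in the 3 control libraries and 0.773%, 0.773% and 0.767% in the 3 overexpression libraries. Nucleoporins and carriers rose by similar factors in that measure, the nucleoporins from 0.106 ± 0.001% to 0.257 ± 0.00208% and the carriers from 0.214 ± 0.00208% to 0.514 ± 0.00153% (SD, n = 3). The authors' deposited table has 34 members positive and 1 negative at an adjusted p under 0.05, where 31% and 32.8% of the 15710 genes it lists are positive and negative.

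**Figure D1:**
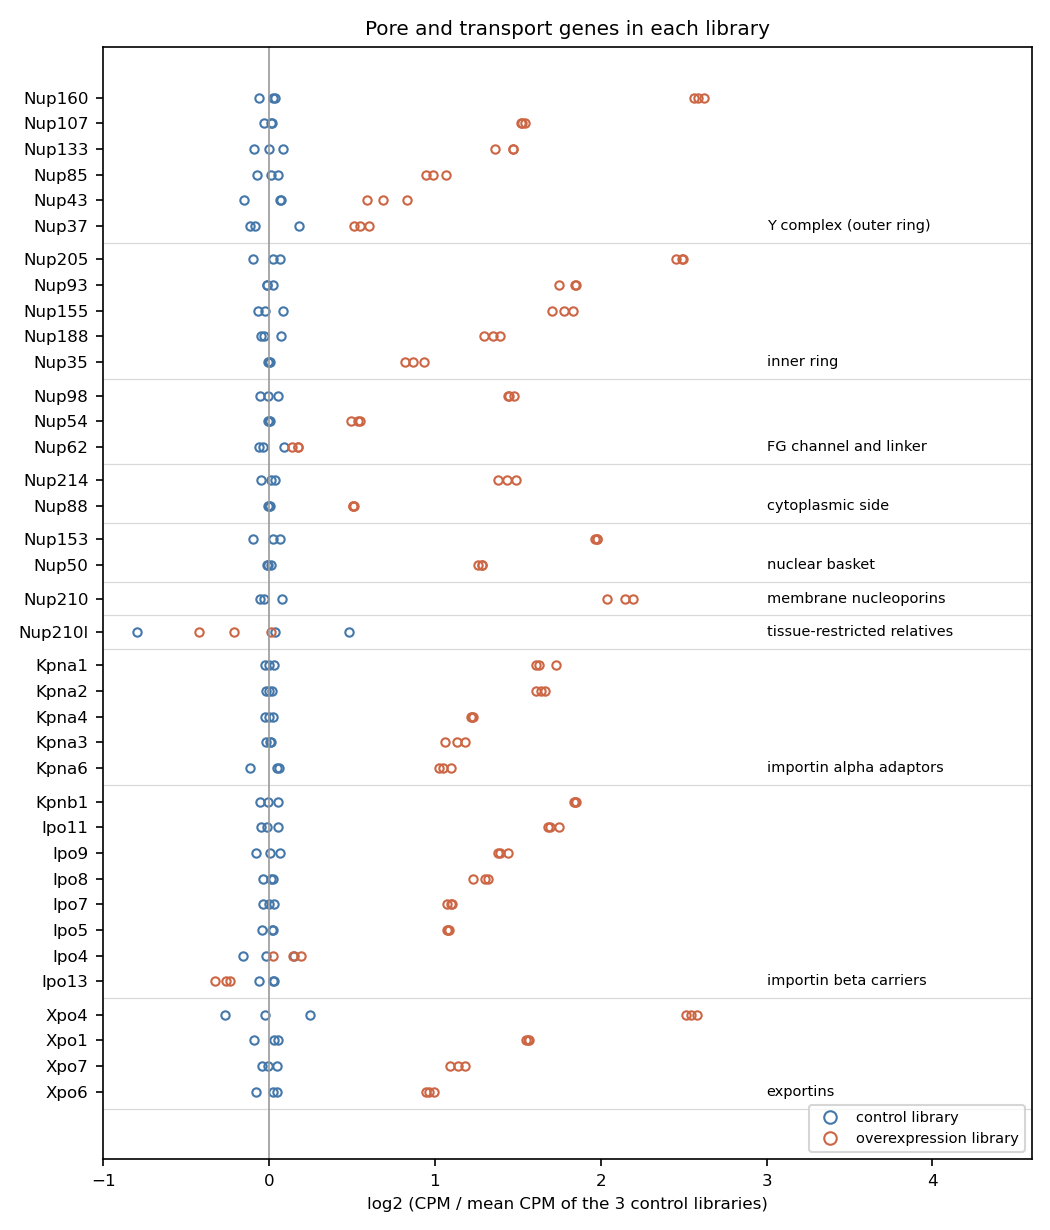
Each row is a tested member, grouped by its place in the pore or its kind of carrier, and each circle is 1 library, placed at the log2 of its CPM over the mean CPM of the 3 control libraries (blue, control; orange, overexpression). The overexpression circles lie to the right of all control circles in 34 of 37 rows, overlap them in Ipo4 and Nup210l, and lie to the left in Ipo13.

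**Figure D2:**
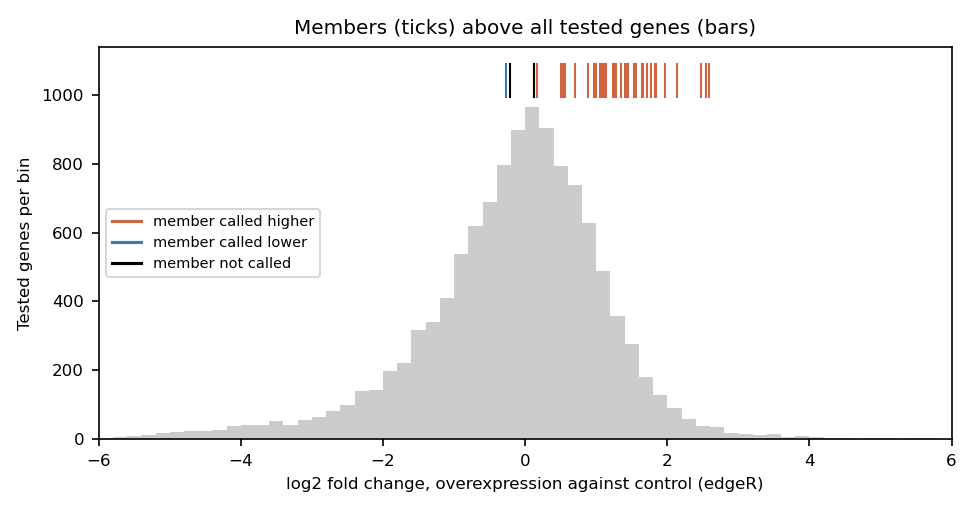
Grey bars count all tested genes per bin of log2 fold change (bins beyond the axis are not drawn), and each tick above them is 1 of the 37 tested members (orange, called higher; blue, called lower; black, not called). The members run from -0.27 to 2.59 with a median of 1.28, while the median of all tested genes is -0.03.

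The Y complex is the scaffold of the outer rings of the pore, on the cytoplasmic and the nuclear side. All 6 members assigned to it were called higher, against 42.1% of all tested genes (median log2 fold change 1.22). Nup160 (ENSMUSG00000051329, GRCm38 chromosome 2, 90677215 to 90736328), which sits in the long arm of the Y, measured 21.5, 21.3 and 20.1 CPM in control libraries against 129, 124 and 126 CPM in overexpressing ones. It rose 6.03-fold, a log2 fold change of 2.59 ± 0.04 (SE from the spread of log2 CPM between libraries, n = 3 against 3, edgeR adjusted p = 2.32e-46), the largest of any member. Nup85 (chromosome 11, 115564434 to 115583985), which sits in the short arm, had the highest mean CPM of the complex. Its levels of 77.6, 82.2 and 84.7 CPM without and 162, 171 and 157 CPM with the overexpression did not overlap and correspond to a log2 fold change of 1.00 ± 0.05 (edgeR adjusted p = 1.15e-31). Nup107 and Nup133, which form the stem, rose 2.89-fold and 2.70-fold, and the peripheral subunits Nup43 and Nup37 rose 1.63-fold and 1.47-fold.

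The inner ring lies at the level of the membrane and anchors the channel. All 5 of its members were called higher, against 42.1% of all tested genes (median 1.77). Nup205 (chromosome 6, 35177421 to 35247596), a large scaffold protein, gave 62.5, 57.4 and 64.3 CPM without and 347, 345 and 336 CPM with the overexpression. Its log2 fold change was 2.48 ± 0.05 (edgeR adjusted p = 2.37e-55), and no other inner ring gene changed as much. Nup188, the paralog of Nup205, rose 2.54-fold, less than Nup205. Nup93, which ties the channel nucleoporins to the scaffold, rose 3.52-fold, Nup155, which contacts the membrane, 3.42-fold, and Nup35 1.83-fold.

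All 3 tested FG nucleoporins of the channel were called higher, against 42.1% of all tested genes. Their median was 0.53, or 0.80 with the length and GC trends removed. Nup98 (chromosome 7, 102119398 to 102210176), whose gene also encodes the Y complex subunit Nup96 as part of a precursor that is cut, stood at 66.8, 61.9 and 63.9 CPM in control cells and at 175, 174 and 179 CPM in overexpressing cells, with a log2 fold change of 1.45 ± 0.03 (edgeR adjusted p = 2.97e-40). Nup54 rose 1.44-fold. Nup62 (chromosome 7, 44816088 to 44830812), the partner of Nup54 in the central trimer, measured 105, 107 and 117 CPM in control libraries against 121, 124 and 124 CPM in overexpressing ones. That is a log2 fold change of 0.17 ± 0.05 (edgeR adjusted p = 0.000164), which became -0.06 with upper quartile scaling, not called, and 0.81 once trends with gene length and GC content were removed. Nup62 shares 2.87% of its exon bases with Atf5 on the opposite strand, a gene with 1643 to 1700 counts in the controls and 129 to 163 with overexpression, and the sources used here do not give the strand setting of the counting. The third protein of that trimer is encoded by the gene listed as Nupl1, which had 1 count in all 6 libraries. Gm49336, which covers 48.8% of the exon bases of Nupl1 on the same strand, had 830 to 963 counts in the controls and 1640 to 2047 with overexpression.

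On the cytoplasmic side, where exported messenger RNA leaves the pore, both members were called higher, against 42.1% of all tested genes. Nup214 (chromosome 2, 31974436 to 32053975) gave 33.3, 31.9 and 33.9 CPM without and 92.9, 89.5 and 86 CPM with the overexpression, a log2 fold change of 1.44 ± 0.04 (edgeR adjusted p = 8.77e-33). Its binding partner Nup88 (chromosome 11, 70943058 to 70969973) rose less, from 93, 93.7 and 92.6 CPM to 132, 132 and 133 CPM. The log2 fold change of Nup88, 0.51 ± 0.01 (edgeR adjusted p = 1.71e-18), became -0.01 after removal of the length and GC trends, not called.

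The nuclear basket reaches into the nucleoplasm, and both of its members were called higher, against 42.1% of all tested genes. Nup153 (chromosome 13, 46679905 to 46727940), which holds the basket to the pore, went from 57.7, 51.6 and 56 CPM to 217, 215 and 217 CPM, a log2 fold change of 1.97 ± 0.05 (edgeR adjusted p = 2.06e-47). Nup50, which helps to strip cargo from importin alpha, rose 2.42-fold. The membrane-spanning Nup210 (chromosome 6, 91013068 to 91116829) stood at 14.8, 16.2 and 15 CPM in control cells and at 67.8, 63 and 70.1 CPM in overexpressing cells, with a log2 fold change of 2.13 ± 0.06 (edgeR adjusted p = 2.94e-36). Its relative Nup210l was barely detected, at 3.2, 1.32 and 2.35 CPM in control and 2.31, 1.98 and 1.71 CPM in overexpressing libraries. These values overlap (log2 fold change -0.21 ± 0.32, edgeR adjusted p = 0.489), and without control replicate 1 the estimate was 0.11.

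Importin alpha proteins read the classical nuclear localization signal and link cargo to importin beta. All 5 tested adaptors were called higher, against 42.1% of all tested genes, and rose between 2.08-fold and 3.15-fold. Kpna1 (chromosome 16, 35978750 to 36037131) went from 33.7, 35 and 34.3 CPM to 114, 105 and 106 CPM, a log2 fold change of 1.66 ± 0.04 (edgeR adjusted p = 3.66e-37). Kpna2 (chromosome 11, 106988629 to 106999541), the adaptor with the highest level, went from 145, 147 and 149 CPM to 449, 466 and 459 CPM, a log2 fold change of 1.64 ± 0.02 (edgeR adjusted p = 1.32e-51). Kpna4, Kpna3 and Kpna6 rose 2.34-fold, 2.18-fold and 2.08-fold. Kpna2 has a processed copy in the genome, Kpna2-ps, and the sources used here do not state how reads shared with it were treated.

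The importin beta family binds cargo or adaptors and carries them through the FG meshwork. Of its 8 members 6 were called higher, against 42.1% of all tested genes, 1 lower, against 43.9%, and 1 was not called. With the length and GC trends removed all 8 were called higher, against 42.7%. Kpnb1 (chromosome 11, 97159714 to 97187881), importin beta itself and the partner of all importin alpha adaptors, measured 323, 347 and 334 CPM in control libraries against 1205, 1201 and 1196 CPM in overexpressing ones. Its log2 fold change of 1.84 ± 0.03 (edgeR adjusted p = 8.76e-58) was the largest of the family. Ipo11, which imports ubiquitin-conjugating enzymes, rose 3.27-fold and Ipo9, a histone importer, 2.64-fold. Ipo8 rose 2.43-fold, and its paralog Ipo7 and the carrier Ipo5, which import ribosomal proteins and histones among other cargo, rose 2.13-fold and 2.11-fold.

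Ipo13 (chromosome 4, 117894486 to 117914999), a carrier that both imports and exports, was the only member called lower. It gave 61.1, 57.8 and 61.5 CPM without and 51, 48 and 50.3 CPM with the overexpression, without overlap. The log2 fold change of -0.27 ± 0.04 (edgeR adjusted p = 9.04e-06) turned to 0.13, called higher, once the length and GC trends were removed. Ipo4, which carries histones and ribosomal proteins, stood at 37, 32.9 and 29.9 CPM in control cells and at 36.8, 33.9 and 38.1 CPM in overexpressing cells. These overlap, and its log2 fold change of 0.12 ± 0.10 was not called (edgeR adjusted p = 0.101). It was called without control replicate 1 (0.21, edgeR adjusted p = 0.0118), without overexpression replicate 2 (0.18, 0.0336) and with both trends, length and GC, taken out (0.39, 2.07e-06), and stood at -0.11 with upper quartile scaling. In the annotation 55.3% of the exon bases of Ipo4 are shared with Gm49378, a gene with 0 counts, and the treatment of reads from shared bases is likewise not stated.

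All 4 exportins of the rule were called higher, against 42.1% of all tested genes. Xpo4 (chromosome 14, 57577521 to 57665430), which exports the translation factor eIF5A, measured 28.7, 20.1 and 23.8 CPM in control libraries against 141, 145 and 138 CPM in overexpressing ones. Its log2 fold change was 2.55 ± 0.15 (edgeR adjusted p = 1.31e-24), with a control SD of 4.34 CPM around a mean of 24.2 CPM. Xpo1 (chromosome 11, 23256041 to 23298249), the receptor for the leucine-rich nuclear export signal, went from 174, 157 and 171 CPM to 489, 494 and 496 CPM, a log2 fold change of 1.56 ± 0.05 (edgeR adjusted p = 1.04e-49). Xpo7 and the actin exporter Xpo6 rose 2.20-fold and 1.95-fold.

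Levels were compared between genes as FPKM, which divides by gene length. In the controls Ipo5 stood highest at 65 ± 1.46 FPKM (SD, n = 3), followed by Kpna2 at 52.9 ± 0.696 and Kpnb1 at 52.4 ± 1.82, and the last 2 did not differ beyond their spread. With overexpression Kpnb1 led at 176 ± 0.896 FPKM, then Kpna2 at 154 ± 2.91 and Ipo5 at 129 ± 0.53, with no overlap between neighbours. FPKM keeps any trend of the fold changes with gene length and GC content. With these trends removed the log2 fold change was larger for Kpna2 (1.77) than for Kpnb1 (1.49), so the order of these genes depends on the fit. The order of other members changed too. Nup62 ranked 4 of 39 in the controls at 39.8 FPKM and 9 with overexpression at 41.8 FPKM, Nup205 went from rank 25 to 11, and Ipo13 from rank 11 to 29. These ranks too are without trend removal, under which the log2 fold changes were 0.81 for Nup62, 1.97 for Nup205 and 0.13 for Ipo13. The least abundant member with called change was Nup210, at 1.51 FPKM in the controls and 6.19 FPKM with overexpression.

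**Figure D3:**
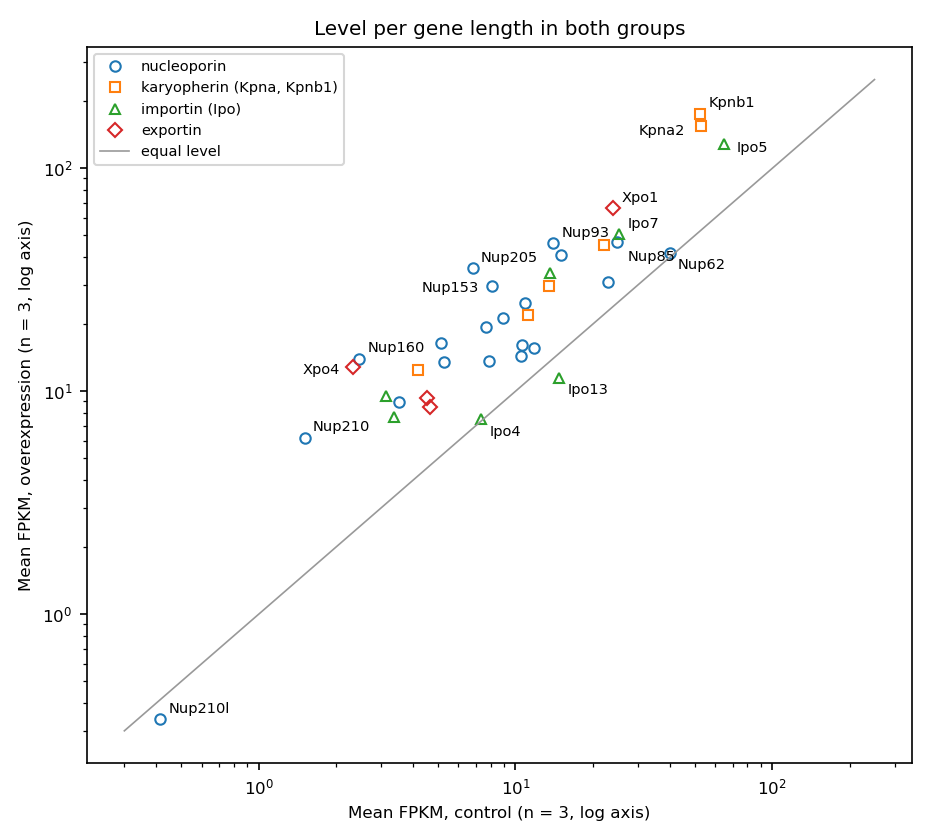
Mean FPKM of each tested member in the controls (horizontal, log axis) against the mean with overexpression (vertical, log axis), n = 3 libraries each, with the line of equal levels and a symbol for each gene family. Kpnb1, Kpna2 and Ipo5 are the highest in both groups, most members lie above the line, and Ipo13 lies below it.

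Subunits of one ring differed in level, and the size of these differences was not the same in both groups. In the Y complex the ratio of the highest to the lowest subunit, Nup85 to Nup160, was 9.32 to 10.9 over the 3 control libraries and 3.22 to 3.57 with overexpression. Nup160 was lowest in both groups by mean, at 2.47 and 14 FPKM, beside 24.8 and 46.7 FPKM for Nup85. In the FG group the ratio of Nup62 to Nup98 went from 6.97 to 8.1 down to 3.06 to 3.16. With the length and GC trends removed, however, Nup62 and Nup98 rose by 0.81 and 0.80 on the log2 scale, while Nup160 and Nup85 still differed, at 2.04 and 1.28. The inner ring went the other way, from 2.54 to 2.89 up to 3.11 to 3.62, with Nup93 highest in both groups while the lowest was Nup155 in the controls and Nup35 with overexpression. The adaptors kept a ratio of 12.5 to 12.9 in the controls and 11.6 to 13.1 with overexpression, ranges that overlap. That ratio is of Kpna2 to Kpna1 by mean, whose log2 fold changes were 1.64 and 1.66. With the length and GC trends removed they were 1.77 and 1.07, so the steady ratio holds only without that removal. In the inner ring Nup93, Nup155 and Nup35 then rose by 1.78, 1.07 and 0.86.

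**Figure D4:**
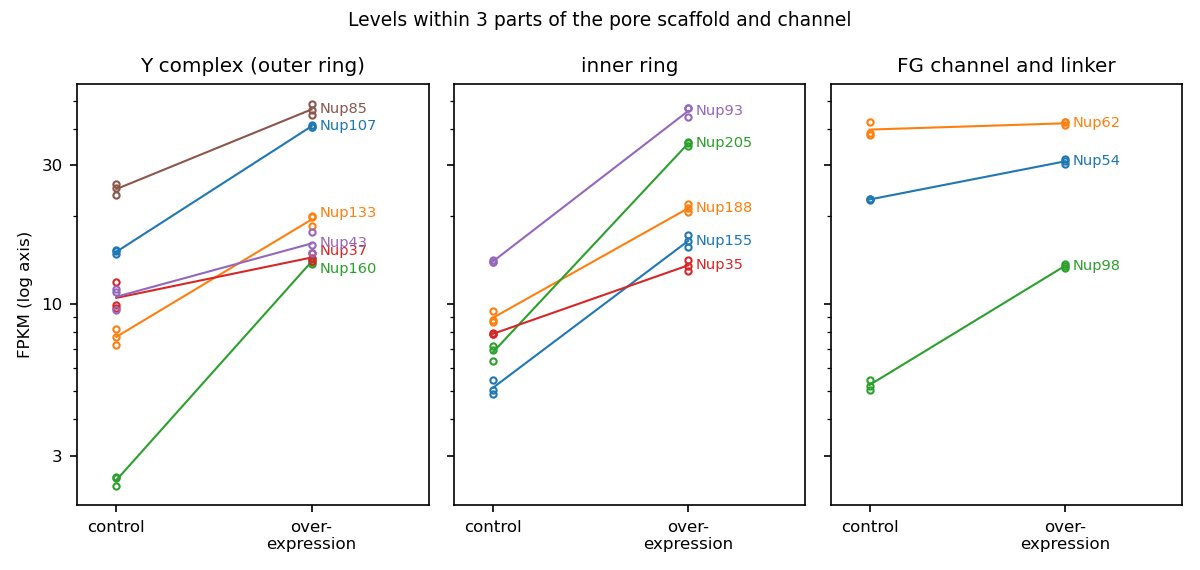
FPKM (log axis) of each gene of the Y complex, the inner ring and the FG group in the 3 control and 3 overexpression libraries (circles), with lines joining the group means. The Nup160 line climbs from 2.47 to 14 FPKM toward the other Y complex genes, while Nup62 goes only from 39.8 to 41.8 FPKM.

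Gene length moved with the groups. Weighted by counts, mean gene length was 5102 ± 14.9 bases in control libraries and rose to 6034 ± 14.7 bases in overexpressing ones (SD, n = 3), and the members are longer than most genes, with a median of 6729 bases against 4526 over all tested genes. Across the 37 tested members, which share the same 6 libraries, the Spearman correlation of length with log2 fold change was 0.43, and across all tested genes 0.33. With the length trend removed in each library, 34 members were called higher, against 43.1% of all genes, and 1 lower, against 42.1%, with a median of 1.10. With the length and GC trends removed, a fit chosen after seeing the data, 35 were called higher, against 42.7% of all genes, and 0 lower, and the median was 1.00. At least 2-fold rises were then called for 19 members, against 13.5% of all genes. The fold of 10 members moved by over 1.5 times under that removal. Among them were the 3 longest members and Ipo7, Xpo7 from 1.14 to 0.30, Xpo6 from 0.97 to 0.15, Ipo8 from 1.28 to 0.51 and Ipo7 from 1.09 to 0.38, on the log2 scale. Nup155 went from 1.77 to 1.07, Xpo4 from 2.55 to 1.89, Nup98 from 1.45 to 0.80, Kpna4 from 1.23 to 0.59 and Kpna1 from 1.66 to 1.07, while Nup62 went up. In all, 28 members had a smaller and 9 a larger value after removal, the latter including Kpna2 (1.64 to 1.77) and Nup85 (1.00 to 1.28). What part length and GC content have in the rise of the members was not tested beyond these fits. Scaling by the upper quartile moved the median of all tested genes to -0.26 and the split of all calls from 4975 higher and 5184 lower to 3961 and 6288. Under it 33 members were called higher, against 33.5% of all genes, and 1 lower, against 53.2%, and the member median was 1.05, lower by about the shift of all genes.

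**Figure D5:**
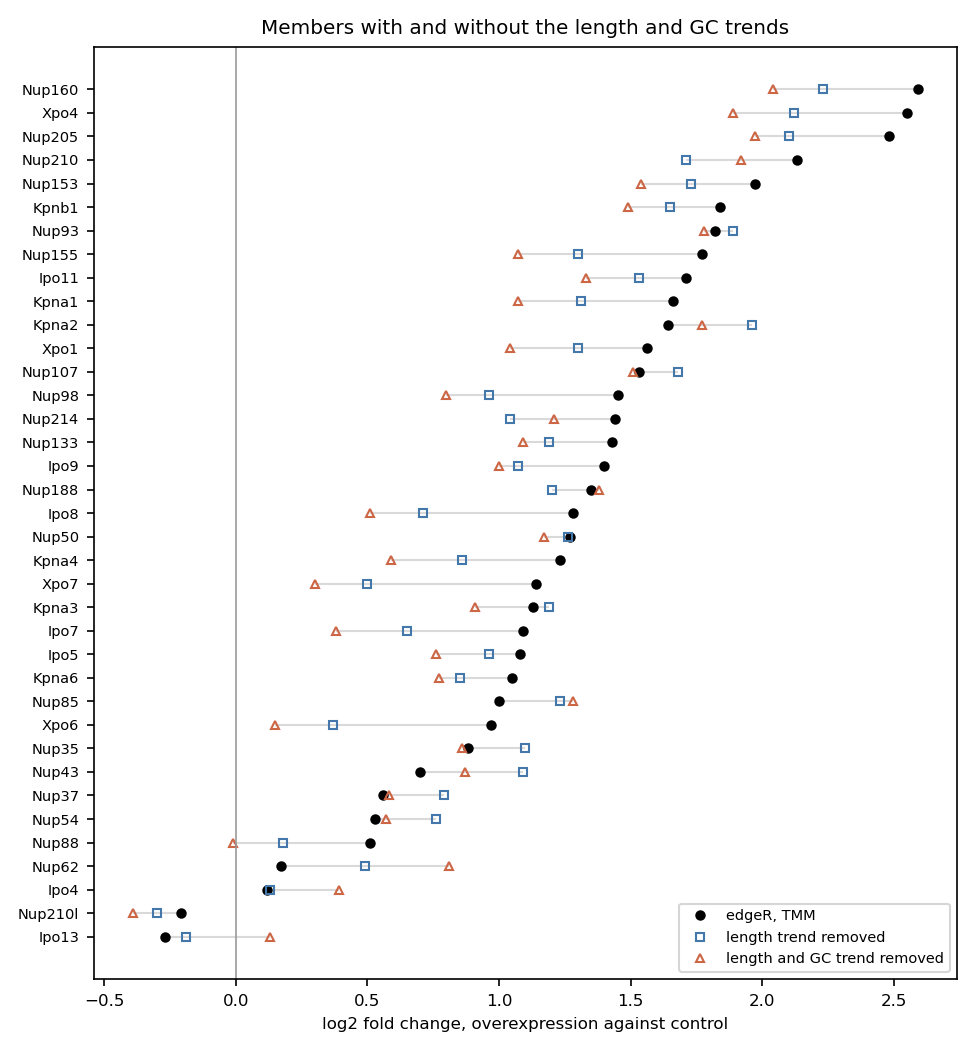
Log2 fold change of each tested member in edgeR with TMM scaling (black circles), with the trend on gene length removed (blue squares) and with the trends on length and GC content removed (orange triangles). Nup160 stays highest in all 3 fits (2.59, 2.23 and 2.04), the long exportin genes Xpo6 and Xpo7 approach 0, and Ipo13 crosses it.

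The other genes of the pore and of nuclear transport were taken from a list of 45 drawn up by function, with earlier results of these data known, and 43 were tested. Of these 37 were called higher, against 42.1% of all tested genes, 5 lower, against 43.9%, and 1 was not called. Their median log2 fold change was 0.64. Pore subunits that carry other names rose in 12 of 12 tested cases, or 11 with the length and GC trends removed, where Tmem33 went from 0.64 to -0.02. Ahctf1, which seeds pore assembly on chromatin, rose 3.97-fold, the basket protein Tpr 3.01-fold and Ranbp2 of the cytoplasmic filaments 3.00-fold. Of the carriers named otherwise 5 of 7 rose. Cse1l, which returns importin alpha to the cytoplasm, went from 79.4 ± 1.17 to 319 ± 7.14 CPM (SD, n = 3), Tnpo1, the carrier of many RNA-binding proteins, rose 3.77-fold, and Xpot, the transfer RNA exporter, 1.91-fold. Ranbp17 was not called (edgeR adjusted p = 0.057).

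All 6 tested genes of the Ran cycle were called higher, against 42.1% of all tested genes. Ranbp3 (log2 fold change 0.22) however stood at -0.01, not called, both with upper quartile scaling and with the length trend removed. Ran, the GTPase that sets the direction of transport, gave 429.7, 439.9 and 430.2 CPM without and 1059, 1068 and 1074 CPM with the overexpression, 2.46-fold higher (edgeR adjusted p = 2.8e-51). Rcc1, which loads Ran with GTP in the nucleus, and Rangap1, which triggers hydrolysis at the pore, rose 2.75-fold and 3.54-fold. Senp1 and Senp2, whose products remove SUMO and work at the pore, rose 3.00-fold and 1.68-fold.

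In the messenger RNA export list 11 of 15 were called higher, against 42.1% of all tested genes, and 4 lower, against 43.9% (median 0.47). With upper quartile scaling 9 were called higher, against 33.5% of all tested genes, as Thoc5 went from 0.15 to -0.08 and Ddx19a from 0.17 to -0.05. With the length and GC trends removed 10 were called higher, against 42.7%. Nxf1, the main export receptor, rose 1.38-fold, Mcm3ap and Thoc2, scaffolds of export complexes, 1.89-fold and 1.77-fold. Thoc2 was not called once the length and GC trends were removed (log2 fold change 0.03). The genes called lower, named after their values were seen, were Thoc6 (-0.35), Thoc7 (-0.26), Eny2 (-0.19) and Ddx39b (-0.18) of this list and Snupn (-0.46), an adaptor for the import of small nuclear RNPs. After removal of the length and GC trends Thoc6 and Ddx39b were called higher at 0.38 and 0.20, Snupn stood at 0.04, not called, and Thoc7 and Eny2 were still called lower. Eny2 was not called without overexpression replicate 2 (edgeR adjusted p = 0.0511). Exon bases are shared on opposite strands between Thoc6 and Hcfc1r1 (14.2%), which had 2342 to 2393 counts in the controls and 477 to 564 with overexpression.

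The seed-matched 7-mer ATCTAGT of miR-28-3p was searched in the longest annotated 3' UTR (GENCODE release 21) of each gene. It was found in 3 of the 36 tested members that have such a UTR (8.33%) and in 6.72% of tested genes overall. The 3 holders, Kpna4, Nup153 and Nup155, were all called higher, at log2 fold changes of 1.23, 1.97 and 1.77. Windows around the sites are shown because these are the members with a seed match to the overexpressed microRNA, and the match is in capitals.
Kpna4 site at UTR base 5494: caggggctgcATCTAGTgatggctgt
Kpna4 site at UTR base 5634: accatggaaaATCTAGTgaccttgtc
Kpna4 site at UTR base 6287: tcttcaacaaATCTAGTacctcccag
Nup153 site at UTR base 561: gacttgttagATCTAGTtcattctcc
Nup155 site at UTR base 1140: atcctgttttATCTAGTttgtttttg
Nup155 site at UTR base 2095: aaatgctttaATCTAGTtgtgtttcc
The third Kpna4 site is the only one of these followed by an A, the base that extends the match beyond the seed in the usual classification. A match is a description of the letters and not evidence that the site is used. The median log2 fold change was 1.77 for the 3 members with the match and 1.28 for those without. Among all tested genes it was likewise higher with the match, at 0.33 against -0.05 without. These medians come from the fit with no trend removed, in which longer genes had larger log2 fold changes (Spearman correlation 0.33 over all tested genes). What part gene length has in these differences was not tested.

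Since most members moved together, their promoters were searched for letters of common promoter elements. Windows from 250 bases before to 50 after the start were taken from RefSeq (GRCm38.p6), and 28 of the 37 tested members had at least 1, 33 windows in all. The letters CCAAT, on either strand, stood in 57.6% of these windows, in 37.7% of the windows of all tested genes and in 37.4% of all windows. The ETS letters CCGGAAG stood in 18.2% of member windows and 17.7% of those of tested genes, the NRF1 core GCGCATGC in 9.09% and 5.27%, and the E2F letters TTTCCCGC, TTTGGCGC, TTTGCCGC or TTTCGCGC in 6.06% and 3.95%. Some NRF1, ETS and E2F letters can overlap one another, and small numbers of windows stand behind the last 3 values. The promoters of the partners Kpnb1 and Kpna2, the most abundant members with overexpression, are shown 5′ to 3′ on the minus strand of chromosome 11 with the CCAAT letters in capitals.
Kpnb1 promoter, chr11:97187843-97188142: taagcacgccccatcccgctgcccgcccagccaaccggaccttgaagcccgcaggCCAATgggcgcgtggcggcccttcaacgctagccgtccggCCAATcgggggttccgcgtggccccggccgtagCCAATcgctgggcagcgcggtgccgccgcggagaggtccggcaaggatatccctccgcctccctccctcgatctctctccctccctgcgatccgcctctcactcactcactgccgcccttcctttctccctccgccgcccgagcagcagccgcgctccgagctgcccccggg
Kpna2 promoter, chr11:106999476-106999775: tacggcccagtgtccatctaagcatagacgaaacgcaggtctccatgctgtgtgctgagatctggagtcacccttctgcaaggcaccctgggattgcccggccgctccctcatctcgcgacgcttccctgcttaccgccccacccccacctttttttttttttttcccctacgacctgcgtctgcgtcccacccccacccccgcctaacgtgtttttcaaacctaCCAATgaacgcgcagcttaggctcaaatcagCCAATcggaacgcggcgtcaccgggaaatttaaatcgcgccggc
The Kpnb1 window holds CCAAT 3 times and the Kpna2 window 2 times in this orientation. No searched letters stood in the windows of Ipo13, nor in those of Nup160, Nup205, Nup153, Nup133, Nup188 and Ipo8, which were called higher. What binds these windows was not measured.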

How the data were processed

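Polyadenylated RNA of 6 PAM212 libraries, 3 with miR-28-3p overexpression and 3 controls, was sequenced. The authors deposited read counts per gene, FPKM values, log2 fold changes and p-values with adjusted p-values, per the file headers. HISAT2, HTSeq, DESeq and the build mm9 are named, without versions, in the submitters' processing notes. The deposited coordinates of all 39 members equal those of GENCODE release 21 (GRCm38), so they are given as GRCm38. The members and all gene lists were chosen with earlier results of these data known.

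The deposited counts were filtered on low counts, scaled by TMM and tested with edgeR 4.0.16 (quasi-likelihood, Benjamini-Hochberg over 11809 genes, R 4.3.3), after the scripts had been tested on simulated data. Library totals of 14309898 to 16383374 counts set the precision, and the floor of 3 counts covers counting error only. Standard errors come from the spread of log2 CPM between libraries. Alternatives were DESeq2 1.42.0, limma 3.58.1 on log2(FPKM + pseudocount), upper quartile scaling, no filter, a minimum change of 1.5-fold, removal of length trends, a replicate block and leaving out each library. Removal of length and GC trends together was added after seeing the data. Members given library by library were, in each role, those with the largest log2 fold change, those with the highest mean CPM and those called against the direction of their role, and Nup62, Nup88 and Ipo4 were added after their values were seen. Of the other lists, the 3 genes with the smallest p in each sublist and Ran are named, except 1 that is not reported here. Promoter and microRNA sequences are from RefSeq (GRCm38.p6).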

Additional observations from a re-analysis of the deposited data

How the results depend on the processing

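The count of members called higher was 33 to 35 under all settings run other than the minimum change of 1.5-fold. Of the 11809 genes tested in the main fit, 3961 to 5091 were called higher under the same settings. With that minimum, 0 members were called lower, all tested genes gave 2762 higher and 3185 lower, and the other pore and transport genes gave 21 higher and 0 lower. With the length trend removed the other genes had 2 called lower, and with the length and GC trends removed the members had 0 and the other genes 2. The share of all tested genes called lower was 42.1% under each of these removals. The member median was 1.05 with upper quartile scaling, 1.10 with the length trend removed, 1.00 with length and GC removed, and 1.11 and 1.17 with limma on log2(FPKM + 1) and log2(FPKM + 0.1). Leaving out each library in turn gave a member median of 1.27 to 1.32, with 34 to 35 members higher and 1 lower. Of the 11809 genes, 4899 to 4946 were then called higher and 5008 to 5069 lower. Signs turned for Ipo4 (-0.11) and Nup62 (-0.06) with upper quartile scaling, and for Nup210l (0.11) without control replicate 1, whose values ranged from -0.48 to 0.11 as each library was left out. They also turned for Snupn (0.14) and Thoc6 (0.14) with length removed, and for Ipo13 (0.13), Nup88 (-0.01), Snupn (0.04), Thoc6 (0.38), Ddx39b (0.20) and Ranbp17 (-0.01) with length and GC removed. The cause was not tested. A replicate block gave 34 members higher and 1 lower and a median of 1.28, with 4955 of the 11809 genes higher and 5161 lower. Libraries with the same number did not deviate together (correlations -0.005, -0.003 and -0.031). Whether they share handling or a culture cannot be decided from this, since the spread between libraries may be technical only. At this depth members with 0 counts cannot be called absent.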

Other observations

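Genes of the nuclear lamina and envelope were a list of 17 chosen after the members' results were known. By edgeR 13 were called higher, against 42.1% of all tested genes, and 4 lower, against 43.9%. Their median log2 fold change was 0.73. Syne3, which links the envelope to the cytoskeleton, rose 5.73-fold (edgeR adjusted p = 7.95e-45), Lbr, the lamin B receptor, 3.95-fold (6.63e-49), and Lmnb1, a B-type lamin, 2.53-fold (4.97e-41). Lmna, which encodes the A-type lamins, rose 1.16-fold (4.45e-15) but stood at a log2 fold change of -0.01, not called, with upper quartile scaling. Lemd2, an inner membrane protein, went from 112 to 56.3 CPM (1.25e-26) and Emd, which encodes emerin, from 71.8 to 52.7 CPM (2.47e-11), although Emd stood at a log2 fold change of -0.05 with the length trend removed and 0.11 with the length and GC trends removed. Tor1a (-0.21) turned to 0.29 and 0.56 under these removals, Syne2 (0.48) to -0.30 and -0.34, and Sun1 (0.19) to -0.11 and -0.04. With length and GC removed the list gave 12 higher and 3 lower, against 42.7% and 42.1% of all tested genes. With upper quartile scaling it gave 11 and 4, against 33.5% and 53.2%.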
